A study of Mus musculus with 5 samples.

Results

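The genes described are the chemokines and chemokine receptors of mouse liver, 47 of the 18820 genes with a named probe set of their own. They were taken by symbol, as every gene called Ccl, Cxcl, Ccr or Cxcr followed by a number, and each gene is represented by its probe set with the highest mean over all arrays. They comprise 32 ligands (19 Ccl and 13 Cxcl genes) and 15 receptors (9 Ccr and 6 Cxcr genes). Livers came from adult C57Bl/6 mice in 2 groups, each given 300 µg of antibody into the peritoneal cavity 3 times a week for 6 weeks. The 3 control samples received rat IgG, and the 2 treated samples received M279, an antibody against CSF1R, the receptor for the macrophage growth factors CSF1 and IL-34. One array was run per liver sample, the labels give no sex and no count of animals, so that p-values speak of the variation among these arrays alone, which may be technical. The comparison asks how liver expression differed after the antibody.

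Chemokines are small secreted proteins that guide migrating leukocytes along gradients, acting through receptors that couple to inhibitory G proteins. The CC and CXC classes are named for the spacing of their first cysteines, and the receptors are numbered by the class of ligand they bind. In the liver, Kupffer cells (the resident macrophages), sinusoidal endothelium, stellate cells and hepatocytes all make chemokines. Inflammatory members are induced by cytokines and microbial signals through NF-kB or interferon-activated factors, while homeostatic members are made without such signals.

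Values are log2 probe set intensities, on which a difference of 1 is a 2-fold change. Differences are treated minus control, with the standard error (SE) from limma, a linear model that shares information on spread between probe sets. Median intensity was 32.5 to 33.9 on the 5 arrays, and pairs of arrays correlated at 0.983 to 0.992 across probe sets. Kupffer cell markers (8 of 8 measured) summed to intensities of 2966 to 3433 in controls and 2447 to 3241 in treated liver, and hepatocyte markers to 36554 to 38497 and 35279 to 36684, so that RNA of both cell types was present. The targeted receptor gene Csf1r was at 8.59 ± 0.10 (SD, n = 3) in controls and 8.03 ± 0.13 (SD, n = 2) in treated liver. In whole liver, fewer cells of a type and less RNA per cell cannot be told apart. Control replicate 2 stood apart for inflammatory chemokines, so values without that array are given beside the results that it moved most.

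No chemokine or receptor gene differed between the groups past an adjusted p of 0.05 in limma, where 0% of all 35556 probe sets passed (the lowest adjusted p was 0.209 among these genes and 0.175 over all). When limma was fitted to 1 probe set per gene, 0 of the 47 again passed, against 0.0744% of all genes, and the lowest adjusted p among the 47 was 0.104, for Ccl24. At an unadjusted p under 0.05 there were 4 lower genes (8.51%, against 8.4% of all genes) and 4 higher ones (8.51%, against 9.91%). Both treated arrays lay below all controls for 6 genes (12.8%, against 19.5% of all genes) and above all controls for 11 (23.4%, against 25.1%). These shares were near or below those over all genes. With quantile normalization the split was 8 lower and 6 higher, and the shares over all genes under that normalization were not counted. The median difference was 0.07 over the 47 genes and 0.04 over all genes. An exact permutation test of 2 arrays against 3 cannot give a p below 0.1.

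**Figure D1:**
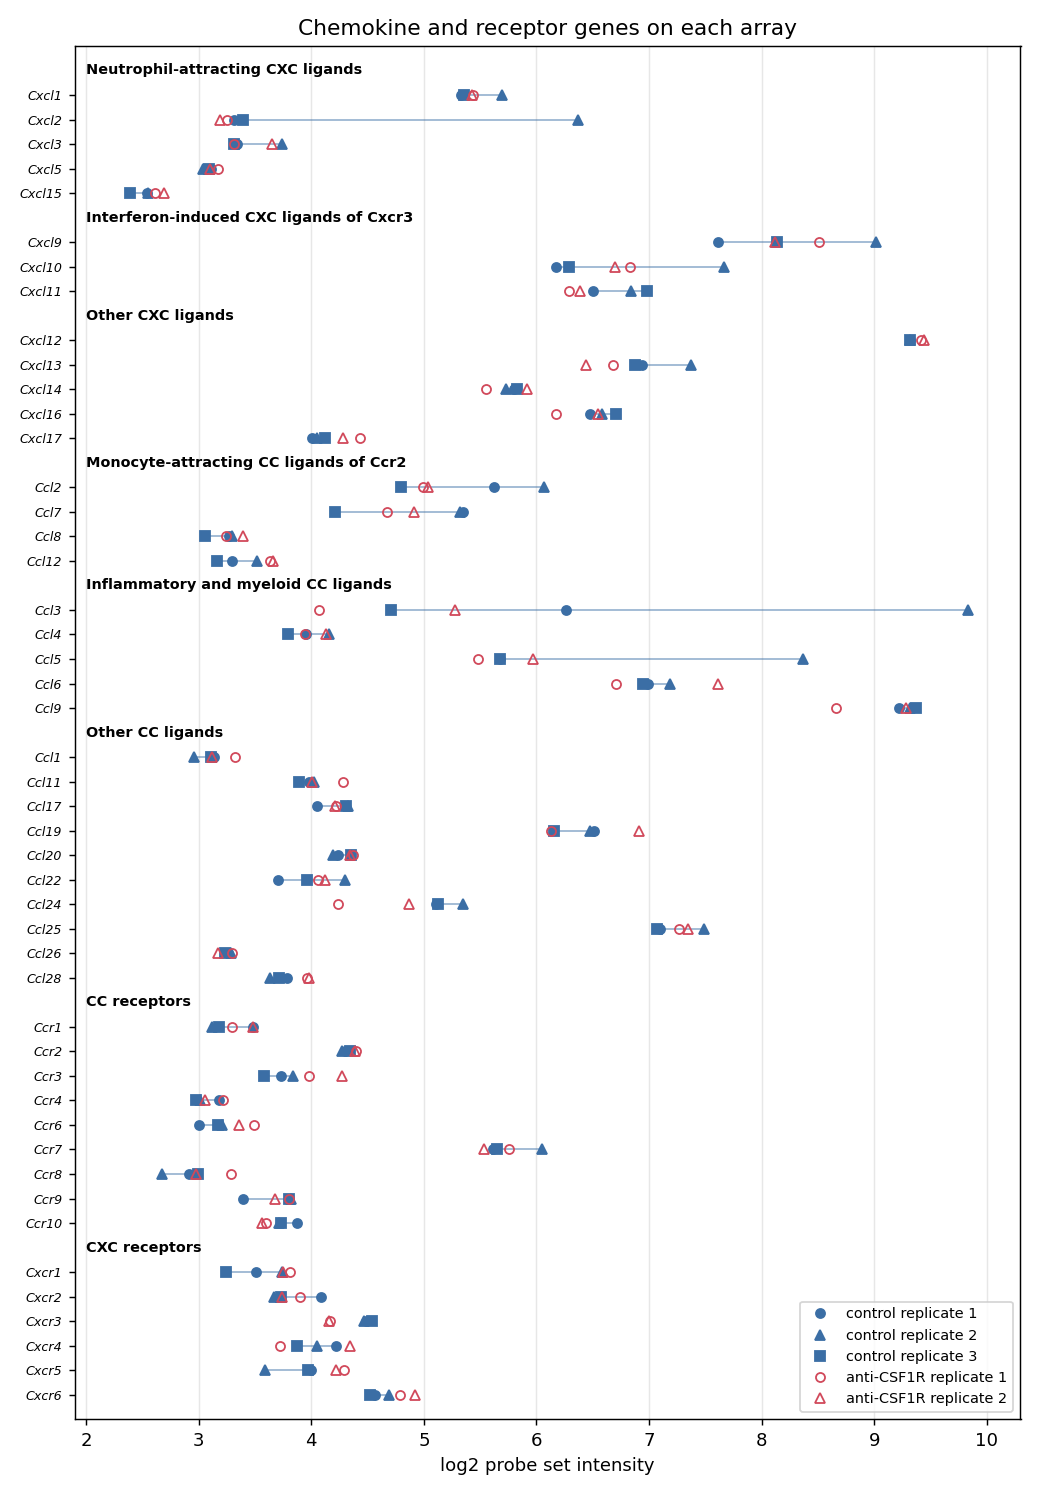
Log2 probe set intensity of the 47 genes (rows, grouped by role) on each of the 5 arrays; filled symbols are controls with a line over their range, open symbols are anti-CSF1R livers. Most rows show 5 symbols close together, while Ccl3, Cxcl2 and Ccl5 have 1 control, replicate 2, far to the right (9.83, 6.37 and 8.37).

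The direction of a difference went with the level of the probe set, over all genes as among these. Of the 47 genes, 33 had a control mean under the median of all genes (5.64) and 14 were at or over it. Among the 33, treated arrays lay above all controls for 10 genes (30.3%, against 42.4% of all genes at that level) and below them for 4 (12.1%, against 4.88%). Among the 14, treated arrays lay above all controls for 1 gene (7.14%, against 7.9%) and below them for 2 (14.3%, against 34.1%). The median difference was 0.09 for the 33 dimmer genes, where it was 0.16 over all genes of that level, and -0.09 for the 14 brighter ones, where it was -0.11. The part of this level-dependent shift in the differences of single genes was not tested.

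**Figure D2:**
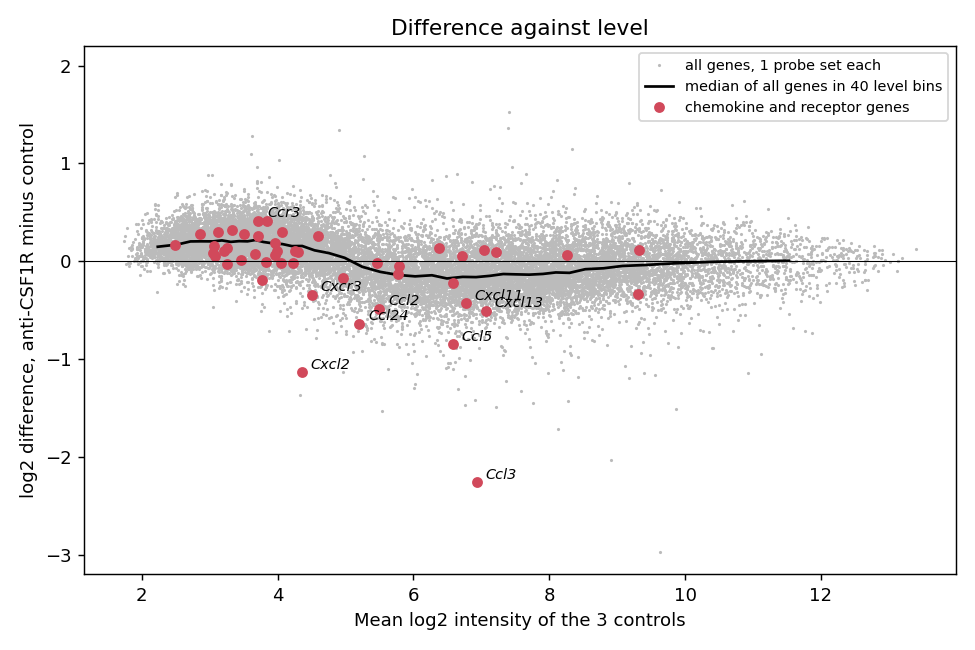
Log2 difference, anti-CSF1R minus control (vertical), against the mean of the 3 controls (horizontal) for all 18820 genes (grey) and the 47 genes (red); the black line is the median of all genes in 40 level bins. The line runs between 0.22 at low level and -0.18 at middle level, and most red points lie within the grey cloud, with Ccl3, Cxcl2, Ccl5 and Ccl24 below the line.

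Several inflammatory ligands varied widely among the 3 controls, and no receptor did. Ccl3 had the largest control SD of all 18820 genes, at 2.63. A control SD over 0.5 was found for 7 of the 47 genes (14.9%), against 0.717% of all genes: Ccl3, Cxcl2, Ccl5, Cxcl10, Cxcl9, Ccl7 and Ccl2. All 7 are ligands, and none is a receptor, but 8 of 9 CC receptors and all 6 CXC receptors lay under the median level of all genes. Dim values cannot be told from background, so narrow controls there do not show that receptor RNA was steady. For 6 of them control replicate 2 was the highest control, the exception being Ccl7, and for all 7 both treated arrays lay below control replicate 2. Among all genes with a control SD over 0.5, that array was the highest control for 67 of 135. How many of those 135 had both treated arrays below it was not counted. Genes picked for wide controls leave much room below the highest one. Over the 47 genes, control replicate 2 was the highest control for 26 (55.3%), against 35.8% of all genes. The median control SD was 0.16 over the 47 genes and 0.11 over all genes, and 0.09 and 0.08 without control replicate 2. Without that array the SD of Ccl5 was 0.00, that of Cxcl2 0.06 and that of Cxcl10 0.09, while Ccl3, Ccl7 (0.80) and Ccl2 (0.58) still exceeded 0.5. Among the other 40 genes the largest control SD was 0.30.

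**Figure D3:**
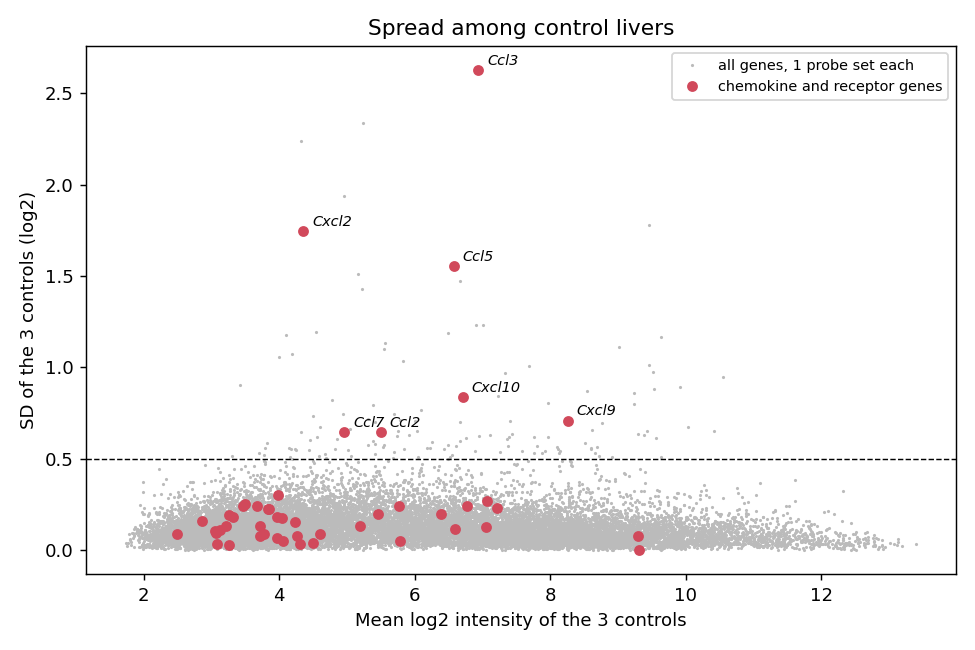
SD of the 3 controls (vertical, log2) against their mean (horizontal) for all 18820 genes (grey) and the 47 genes (red); the dashed line marks 0.5. The 7 named ligands lie above the line, with Ccl3 the highest point of all at 2.63, and the other 40 red points lie at or under 0.30.

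The promoters of ligands with wide controls are shown because inflammatory signals reach such genes there. RefSeq (GRCm38.p6) gave a window from 250 bases before to 50 bases after the gene's start for 33 of the 47 genes, and for 4 of the 7. The windows are chr11:83649329-83649628, minus strand for Ccl3, chr5:90903649-90903948, plus strand for Cxcl2, chr5:92348840-92349139, minus strand for Cxcl10 and chr5:92328030-92328329, minus strand for Cxcl9. Capitals mark matches to the NF-kB consensus or, in 1 place, to the interferon response motif (TTTC, any 2 bases, then TTTC again), each searched on both strands, and all windows are written along the gene's own strand.
Ccl3: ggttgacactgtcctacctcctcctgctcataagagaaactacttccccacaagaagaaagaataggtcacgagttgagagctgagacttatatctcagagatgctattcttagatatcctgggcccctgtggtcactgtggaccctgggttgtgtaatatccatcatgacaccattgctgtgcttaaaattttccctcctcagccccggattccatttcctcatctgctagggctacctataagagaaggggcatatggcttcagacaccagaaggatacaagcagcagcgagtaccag
Cxcl2: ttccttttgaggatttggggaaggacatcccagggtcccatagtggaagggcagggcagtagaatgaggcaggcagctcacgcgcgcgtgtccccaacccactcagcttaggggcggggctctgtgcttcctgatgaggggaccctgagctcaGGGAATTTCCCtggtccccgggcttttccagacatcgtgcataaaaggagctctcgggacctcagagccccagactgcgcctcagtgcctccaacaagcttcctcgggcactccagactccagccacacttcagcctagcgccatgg
Cxcl10: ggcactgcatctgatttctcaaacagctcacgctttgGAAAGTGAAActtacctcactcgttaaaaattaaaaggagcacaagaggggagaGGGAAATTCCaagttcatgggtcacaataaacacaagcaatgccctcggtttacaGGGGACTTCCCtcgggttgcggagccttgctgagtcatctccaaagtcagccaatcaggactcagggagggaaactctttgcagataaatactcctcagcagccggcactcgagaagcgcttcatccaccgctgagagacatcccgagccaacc
Cxcl9: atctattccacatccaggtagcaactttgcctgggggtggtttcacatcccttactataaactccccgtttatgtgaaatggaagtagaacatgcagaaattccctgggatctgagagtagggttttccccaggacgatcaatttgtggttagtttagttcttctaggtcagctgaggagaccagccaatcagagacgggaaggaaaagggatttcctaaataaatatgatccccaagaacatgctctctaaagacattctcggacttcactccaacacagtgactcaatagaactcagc

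The Cxcl2 window held 1 stretch matching the NF-kB consensus on both strands, from 97 to 87 bases before the start. The Cxcl10 window held 2, from 159 to 150 and from 104 to 94 bases before the start, with overlapping matches in the second, and the interferon response motif from 213 to 204 bases before it. These motifs did not overlap each other, and neither was found in the Ccl3 and Cxcl9 windows. The NF-kB consensus was present in 10 of the 33 genes with a window (Ccl1, Ccl9, Ccl20, Ccr1, Ccr3, Ccr6, Cxcl1, Cxcl2, Cxcl3 and Cxcl10) and in 8.46% of 32851 promoters. The interferon response motif was present in 3 of the 33 (Ccl19, Cxcl10 and Cxcl14) and in 3.44% of all promoters. The 33 were counted by gene and the 32851 by promoter window, so these shares are not like for like, and no enrichment was tested. A match is a description of letters, not of binding.

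A further group of inflammatory and myeloid CC ligands draws monocytes, macrophages and T cells. In this group of 5 the treated arrays overlapped the controls for every gene, and the median difference was -0.33, or 0.05 without control replicate 2. Ccl3 (MIP-1 alpha, made by activated macrophages) was at 6.26, 9.83 and 4.71 on control replicates 1 to 3 and at 4.07 and 5.28 on the treated arrays. The controls thus spanned 5.12, and 1 treated array lay inside their range. The Ccl3 difference was -2.26 ± 1.42 (SE, limma adjusted p = 0.399), the largest of the 47. It was -0.81 without control replicate 2 and -3.37 without control replicate 3. The probe set of Ccl4 (MIP-1 beta), the neighbouring gene to Ccl3, showed no such excursion, with 3.95, 4.16 and 3.79 in controls and 3.94 and 4.13 in treated liver. Control replicate 2 was its highest control by a small step. At this dim level values cannot be told from background, so the probe set cannot show that the gene was unchanged there.

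Ccl5 (RANTES, made by T cells and macrophages) was at 5.68, 8.37 and 5.68 in controls and 5.48 and 5.97 in treated liver. Its control replicates 1 and 3 matched each other and lay between the treated arrays. The Ccl5 difference was -0.85 ± 0.83 (SE) and turned to 0.05 without control replicate 2. Ccl6 and Ccl9, macrophage and myeloid chemokines described in mouse, behaved otherwise, with narrow controls and wide treated arrays. Ccl6 was at 6.99, 7.19 and 6.95 in controls and at 6.71 and 7.61 in treated liver, on either side of all controls, so that its difference of 0.12 ± 0.27 (SE) ran from -0.33 to 0.57 when 1 treated array was left out. Ccl9 was at 9.22, 9.32 and 9.37 in controls and at 8.66 and 9.28 in treated liver, a difference of -0.33 ± 0.19 (SE) that was -0.02 without treated replicate 1 and -0.64 without treated replicate 2.

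**Figure D4:**
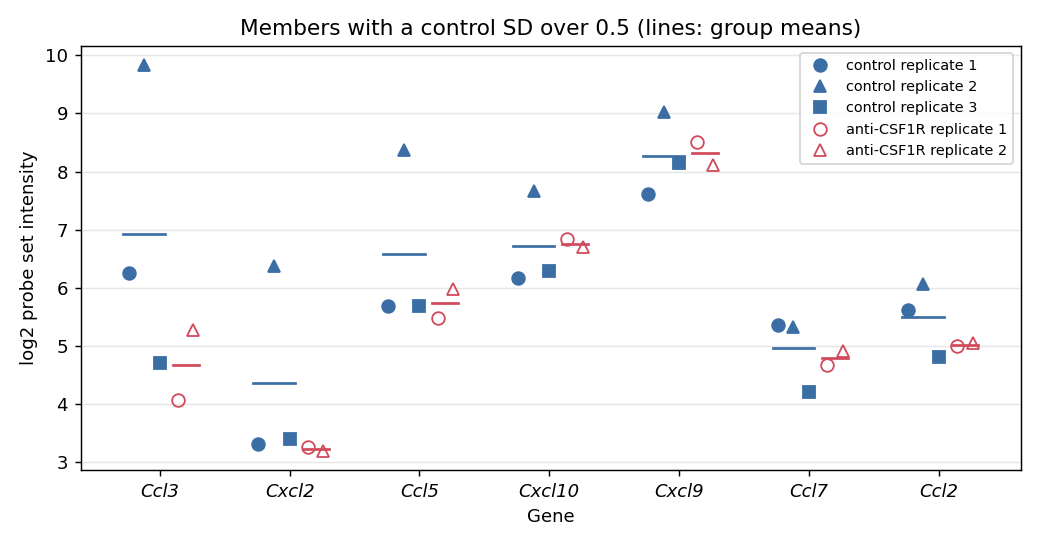
Log2 probe set intensity of the 7 ligands with a control SD over 0.5, with 1 symbol per array and lines at the group means. Control replicate 2 (filled triangle) is highest for every gene but Ccl7, and for Cxcl2 and Ccl5 the other controls lie near the treated arrays, while Ccl3, Ccl7 and Ccl2 stay spread without it.

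Ligands of Ccr2 call monocytes out of the bone marrow into tissue. None of the 4 passed the test, and 1, Ccl12, had groups that did not overlap. Ccl2 (MCP-1, the main monocyte attractant) was at 5.62, 6.07 and 4.80 in controls and 4.99 and 5.04 in treated liver. The treated arrays lay close together, near the low end of the controls and inside their range. Its difference was -0.48 ± 0.35 (SE, limma adjusted p = 0.455), and it was -0.20 without control replicate 2 and -0.83 without control replicate 3. Ccl7 (MCP-3) was at 5.35, 5.32 and 4.21 in controls and 4.67 and 4.91 in treated liver, again with control replicate 3 the lowest and the treated arrays within the controls. Its difference of -0.17 ± 0.36 (SE) was 0.01 without control replicate 2. Ccl12 (MCP-5, described in mouse) was at 3.30, 3.52 and 3.16 in controls and 3.63 and 3.66 in treated liver, so that both treated arrays lay above the controls, at a level where such positions were common among all genes. Its difference was 0.32 ± 0.14 (SE, limma adjusted p = 0.283). The last of the group, Ccl8 (MCP-2), differed by 0.11 with overlapping groups.

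CXC ligands that attract neutrophils through Cxcr2 had a median difference of 0.02 over 5 genes, all of them under the median level of all genes. Cxcl2 (MIP-2, induced in macrophages) was at 3.31, 6.37 and 3.39 in controls and 3.25 and 3.19 in treated liver. Both treated arrays lay below all controls, but control replicates 1 and 3 were near them, and the difference of -1.14 ± 0.92 (SE, limma adjusted p = 0.496) shrank to -0.13 when control replicate 2 was left out and was -1.66 without control replicate 1. Cxcl1 (KC, which hepatocytes and endothelium also make) was at 5.33, 5.69 and 5.36 in controls and 5.44 and 5.43 in treated liver, a difference of -0.02 ± 0.14 (SE), or 0.09 without control replicate 2. Control replicate 2 was the highest for Cxcl1 too, by a far smaller step than for Cxcl2. Cxcl3 (0.02, or 0.16 without control replicate 2) and Cxcl5 (0.05), further neutrophil attractants, had overlapping groups, and Cxcl15, a neutrophil attractant described in mouse lung, was higher on both treated arrays by 0.16 at the lowest control mean of the 47 (2.49).

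Cxcl9, Cxcl10 and Cxcl11 are induced by interferons and attract activated T cells and NK cells through Cxcr3. Cxcl9 was at 7.61, 9.02 and 8.14 in controls and 8.51 and 8.12 in treated liver. Cxcl10 was at 6.17, 7.67 and 6.29 in controls and 6.83 and 6.70 in treated liver. For both, control replicate 2 was highest and the treated arrays lay within the controls, so that differences of 0.06 ± 0.40 (SE) for Cxcl9 and 0.05 ± 0.45 (SE) for Cxcl10 became 0.44 and 0.53 without that array. Cxcl11 had another pattern, at 6.50, 6.84 and 6.98 in controls and 6.29 and 6.39 in treated liver. Both treated arrays lay below all controls, and the difference was -0.43 ± 0.16 (SE, limma adjusted p = 0.252), or -0.40 without control replicate 2. Cxcr3, the receptor of all 3, is described with the receptors.

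Of the other CXC ligands, Cxcl12 (SDF-1), the homeostatic ligand of Cxcr4, had the tightest controls of all 47 genes, at 9.32 on each. It was at 9.42 and 9.44 in treated liver, and its difference of 0.11 ± 0.10 (SE, limma adjusted p = 0.519) moved between 0.11 and 0.12 when any 1 array was left out. The SE is wider than this spread because limma draws the variance of each gene towards that of all probe sets. Cxcl13, which attracts B cells through Cxcr5, was at 6.94, 7.37 and 6.88 in controls and 6.68 and 6.44 in treated liver, lower on both treated arrays than on any control. The Cxcl13 difference was -0.51 ± 0.18 (SE, limma adjusted p = 0.244), and -0.35 without control replicate 2. Cxcl16, the ligand of Cxcr6, was at 6.48, 6.58 and 6.71 in controls and 6.17 and 6.55 in treated liver. Only treated replicate 1 lay outside the controls, and the difference of -0.23 ± 0.15 (SE) was -0.03 without it, -0.42 without treated replicate 2 and -0.08 with quantile normalization. Cxcl14 differed by -0.05 with overlapping groups, and Cxcl17, a mucosal chemokine, by 0.29 with both treated arrays above the controls at a dim probe set (4.06).

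Among the 10 other CC ligands the median difference was 0.10, and the groups overlapped for 8. Of the 10, 8 lay under the median level, where 42.4% of all genes were apart and higher and 4.88% apart and lower. Ccl24 (eotaxin-2, an attractant of eosinophils through Ccr3 that macrophages make) was at 5.11, 5.35 and 5.13 in controls and 4.24 and 4.87 in treated liver. Both treated arrays lay below all controls, treated replicate 1 by much the more. The difference was -0.64 ± 0.21 (SE, limma adjusted p = 0.222), -0.57 without control replicate 2, -0.32 without treated replicate 1 and -0.96 without treated replicate 2. Ccl24 and Ccl3 differed in where their spread lay, since the Ccl24 controls spanned 0.24. Ccl11 (eotaxin), another eosinophil attractant, differed by 0.18 with overlapping groups (0.21 without control replicate 2, and then apart).

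Ccl25, the ligand of Ccr9, was at 7.10, 7.49 and 7.07 in controls and 7.27 and 7.35 in treated liver, a difference of 0.09 ± 0.16 (SE), with a second probe set at 0.31. Ccl22, made by dendritic cells and macrophages for Ccr4, was at 3.70, 4.30 and 3.96 in controls and 4.06 and 4.12 in treated liver, a difference of 0.10 ± 0.19 (SE). For both, control replicate 2 was the highest of all 5 arrays. Without it the differences were 0.23 for Ccl25 and 0.26 for Ccl22, and both treated arrays lay above the other controls. Ccl17, the other ligand of Ccr4, differed by -0.02. Ccl19, a ligand of Ccr7 in lymphoid tissue, was at 6.13 and 6.91 on the treated arrays, on either side of its controls, and its 5 probe sets differed by 0.10 to 0.16. Ccl28 was higher on both treated arrays (0.26), while Ccl1 (0.15), Ccl20 (0.10) and Ccl26 (-0.03) overlapped.

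All 15 receptors had control SDs between 0.03 and 0.25, where the median over all genes was 0.11 and the 95th percentile 0.28. Of the 15, 14 lay under the median level of all genes. Of the 9 CC receptors, 3 were higher on both treated arrays, 1 was lower and 5 overlapped, with a median difference of 0.09. All but 1 of the 9 lay under the median level, where 42.4% of all genes were apart and higher and 4.88% apart and lower. Ccr2, which marks classical monocytes, was at 4.30, 4.27 and 4.34 in controls and 4.40 and 4.39 in treated liver. The difference of 0.09 ± 0.10 (SE, limma adjusted p = 0.611) was smaller than its SE. Ccr1, a receptor of Ccl3 and Ccl5 on myeloid cells, was at 3.48, 3.12 and 3.18 in controls and 3.30 and 3.48 in treated liver, a difference of 0.13 ± 0.15 (SE) with overlapping groups. Neither probe set showed the excursion of Ccl3 and Ccl5 on control replicate 2, where Ccr1 and Ccr2 were at their lowest control values. For Ccr2 that step was small (4.27 against 4.30). At these dim levels values cannot be told from background, so the probe sets cannot show that the receptor genes were unchanged there.

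Ccr3, the eosinophil receptor of Ccl24 and Ccl11, was higher on both treated arrays (0.41 ± 0.14, SE, limma adjusted p = 0.234), in the direction opposite to Ccl24. Ccr6, the receptor of Ccl20, was also higher (0.30 ± 0.12, SE), and these examples were chosen after their values were seen. Ccr10, a receptor of Ccl28, was lower on both (-0.19). The remaining CC receptors overlapped, namely the lymph node homing receptor Ccr7 (-0.13), the gut homing receptor Ccr9 (0.07), Ccr4 (0.09) and Ccr8 (0.28), the last 2 found on T helper and regulatory T cells.

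Of the 6 CXC receptors, all under the median level and so to be read against the same shares, 3 were higher on both treated arrays, 1 was lower and 2 overlapped. Cxcr3, carried by activated T cells and NK cells, was at 4.49, 4.47 and 4.54 in controls and 4.17 and 4.16 in treated liver. The 2 groups were each tight and lay apart, with a difference of -0.34 ± 0.10 (SE, limma adjusted p = 0.209) that ran from -0.36 to -0.32 when any 1 array was left out. In the fit to all probe sets it had the smallest p of the 47 genes and still missed the threshold, at a dim probe set. Cxcr6, found on liver T cells and NKT cells, was at 4.57, 4.69 and 4.52 in controls and 4.79 and 4.92 in treated liver, above all controls by a difference of 0.26 ± 0.11 (SE, limma adjusted p = 0.289).

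Cxcr2, the neutrophil receptor, was at 4.09, 3.67 and 3.73 in controls and 3.90 and 3.74 in treated liver, and Cxcr4, the receptor of Cxcl12, was at 4.22, 4.05 and 3.87 in controls and 3.72 and 4.34 in treated liver. Both differed by -0.01, with SE of 0.16 for Cxcr2 and 0.21 for Cxcr4, and their groups overlapped. Cxcr5, the B cell receptor of Cxcl13, was higher on both treated arrays (0.41 ± 0.16, SE, limma adjusted p = 0.255), opposite to its ligand, and Cxcr1, another neutrophil receptor, was higher by 0.28 ± 0.17 (SE). Both were chosen as examples after their values were seen.

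**Figure D5:**
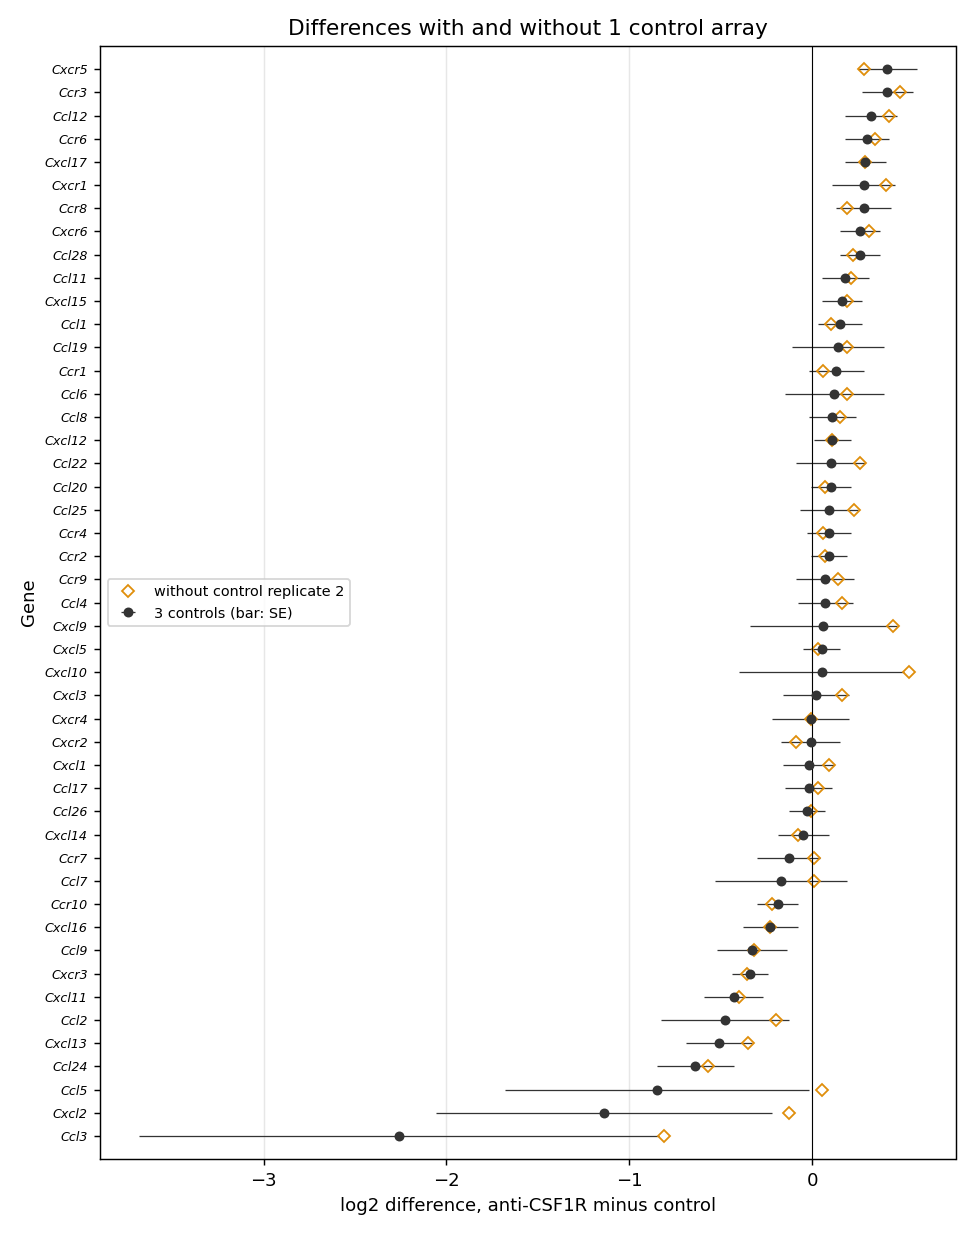
Log2 difference, anti-CSF1R minus control, for the 47 genes, with the SE from limma (black points and bars) and without control replicate 2 (orange diamonds). Ccl3 moves from -2.26 to -0.81, Cxcl2 from -1.14 to -0.13 and Ccl5 from -0.85 to 0.05, while most other genes move little.

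Without control replicate 2, the median difference of the 47 genes was 0.09 (0.04 over all genes). Both treated arrays then lay below the remaining controls for 6 genes (12.8%, against 23.8% of all genes) and above them for 16 (34%, against 30.4%), Ccl11, Ccl22, Ccl25, Cxcl1 and Cxcl10 having joined the higher ones. The sign changed for 5 of the 47 (Ccl5, Ccl7, Ccl17, Ccr7 and Cxcl1).

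Other genes of the chemokine system gave no call in limma. Of 4 other chemokines measured, Cx3cl1 (fractalkine) was higher on both treated arrays (0.20 ± 0.10, SE), and the platelet chemokines Pf4 and Ppbp and the lymphocyte chemokine Xcl1 overlapped. Under the median level, where Cx3cl1 lay, 42.4% of all genes were apart and higher. Among 6 other and atypical receptors, 1 stood apart: Cx3cr1, the fractalkine receptor of patrolling monocytes and macrophages, at 4.71, 4.98 and 4.68 in controls and 4.12 and 4.33 in treated liver (-0.57 ± 0.14, SE, limma adjusted p = 0.193). All 6 lay under the median level, where 4.88% of all genes were apart and lower. Of 16 genes that carry or damp the signal from the receptors, 7 were lower and 1 higher with groups apart, and the median difference was -0.21. Those that damp it are Grk6, Arrb1, Arrb2, Rgs1 and Rgs2. Grk6 (-0.15) was among the lower ones, and the higher one was Arrb1 (0.12). Of the 16, 4 lay under the median level. Over all genes 19.5% were apart and lower, and 34.1% of those at or over the median level. The lower ones included Elmo1 (-0.52 ± 0.14, SE) and Dock2 (-0.41 ± 0.16, SE), which together switch on Rac in migrating leukocytes, Vav1 (-0.45 ± 0.15, SE) and Plcb2 (-0.41 ± 0.13, SE). The G protein subunit genes Gnai2 (0.06), Gnai3 (-0.07) and Gnb1 (0.01), which nearly all cells use, overlapped.

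Genes that induce chemokines or restrain that induction shared the position of control replicate 2. The restraining ones are Nfkbia and Tnfaip3, which hold back NF-kB. Control replicate 2 was the highest control for 12 of the 13 genes listed, these restraining genes among them, against 35.8% of all genes. For some the step was small, as for Rela (8.99, 9.14 and 9.13 in controls). The trait was not theirs alone. Control replicate 2 was also highest for 13 of 16 genes that carry or damp the receptor signal, 6 of 8 Kupffer cell markers and 5 of 6 T cell markers. It was highest for 3 of 9 neutrophil markers and 1 of 5 hepatocyte markers. Of the 13 genes, 4, all inducing cytokines, had a control SD over 0.5, against 0.717% of all genes. Tnf was at 3.76, 5.92 and 3.96 in controls and 4.31 and 4.29 in treated liver, and Il6 was at 2.99, 4.45 and 2.81 in controls and 3.55 and 3.53 in treated liver. Il1a was at 6.54, 8.17 and 6.98 in controls and 6.78 and 6.79 in treated liver. The treated values of these 3 cytokines lay within the range of the controls, and that of Il1b did too (a difference of -1.31, or -0.60 without control replicate 2). Apart from all controls were Ifng (0.39 ± 0.11, SE) and Irf1 (0.23 ± 0.12, SE), of the interferon pathway, on the high side, and the microbial sensors Tlr2 (-0.45 ± 0.17, SE) and Tlr4 (-0.37 ± 0.16, SE) on the low side. None of these passed in limma. They were 2 of 13 higher and 2 of 13 lower, against 25.1% and 19.5% of all genes. Under the median level, where Ifng, Tlr2 and Tlr4 lay, 42.4% of all genes were apart and higher and 4.88% apart and lower. At or over it, where Irf1 lay, the shares were 7.9% and 34.1%. The part of these 13 genes in the chemokine values was not tested.

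Leukocyte markers are given beside the chemokines because the attracted cells carry them. Neutrophil markers (9 of 10 measured, all under the median level of all genes) summed to 169 to 191 in controls and 205 to 222 in treated liver, with 7 of 9 higher on both treated arrays, among them S100a9 (0.31 ± 0.10, SE) and Retnlg (0.54 ± 0.19, SE), and no call in limma. At that level 42.4% of all genes were apart and higher. On control replicate 2, where Cxcl2 was highest, they summed to 184. T cell markers summed to 146 to 169 in controls and 157 to 178 in treated liver, NK cell markers to 93 to 126 and 109 to 133, B cell markers to 132 to 150 and 108 to 173, and dendritic cell markers to 142 to 167 and 131 to 136. Monocyte markers summed to 4907 to 5106 and 3616 to 5045, a sum carried by Fn1, fibronectin, which hepatocytes also make and which was at 12.20 to 12.24 in controls and at 12.21 and 11.78 in treated liver. This sum therefore does not read monocytes. Eosinophil markers summed to 45 to 48 and 51 to 52, and platelet markers to 105 to 112 and 112 to 120. Of the resident cells, sinusoidal endothelial markers summed to 3394 to 3563 in controls and 3790 to 3915 in treated liver, and 2 of the 5 (Clec4g by 0.31 and Fcgr2b by 0.18) were apart and higher. The other endothelial markers overlapped at differences of -0.33 (Lyve1), -0.15 (Stab2) and -0.05 (Oit3). At or over the median level, where all 5 lay, 7.9% of all genes were apart and higher. Stellate cell markers summed to 3261 to 3524 and 3500 to 3532, and cholangiocyte markers to 243 to 268 and 185 to 260. Among Kupffer cell markers, 2 of 8 were lower and 1, the scavenger receptor gene Marco (1.34 ± 0.17, SE), was higher with groups apart. The markers other than Marco lay at or over the median level, where 34.1% of all genes were apart and lower. The sum of all 8 was highest on control replicate 2, at 3433, and smallest on treated replicate 1, at 2447, the array on which Ccl9, Ccl24 and Ccl6 were also lowest. These ligands were picked after their values were seen. Cxcl13 was lowest on treated replicate 2, and Ccl2 and Ccl7 on control replicate 3. Of the 47 genes, 23 were higher on treated replicate 1 than on treated replicate 2. B cell (108) and dendritic cell (131) sums were also smallest on treated replicate 1. The part of any of these cells in the chemokine values was not tested.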

How the data were processed

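Liver RNA from 3 control and 2 anti-CSF1R samples was amplified with a NuGEN kit and labelled with biotin, per the labels' protocols. The authors deposited 1 intensity per probe set and array, for 35556 probe sets on a linear scale. Per the submitters' processing notes the software was Affymetrix Expression Console 1.1. How it summarised, background-corrected and normalized the probes is not stated in the labels or headers. The files carry no detection calls, so dim values cannot be told from background. Log2 was taken with no pseudocount or filter. The platform annotation gave 1 symbol for 21218 probe sets, several for 1881 and none for 12457.

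Groups were compared over all 35556 probe sets with limma (version 3.58.1, R version 4.3.3) by a two-sided moderated test from lmFit and eBayes (3 residual and 3.03 prior degrees of freedom, Benjamini-Hochberg adjustment, threshold 0.05), and the steps were tested on simulated data. Groups are called apart where both treated arrays lie outside the controls' range. The members and lists were chosen with earlier results of these data known. Values of all 5 arrays are given for members that stood apart by at least 0.5, for the 8 with the widest control range, the 8 with the highest control mean, and for fixed receptors and ligands. Alternatives were normalization, pseudocount, dim probe sets, variance models, probe sets tested, the replicate number as a block and leaving out each array. Figures used matplotlib 3.10.9.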

Additional observations from a re-analysis of the deposited data

How the results depend on the processing

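In limma, 0 of the 47 genes passed an adjusted p of 0.05 under every alternative run, while 3 (quantile normalization) to 11 (arrays centred on their medians, or 1 probe set per gene fitted) had an unadjusted p under 0.05, against 8 as reported. Of the counts of genes whose groups did not overlap, the 11 higher became 6 with quantile normalization and 7 without dim probe sets, where 35 of the 47 genes were left, and ran from 13 to 18 when 1 array was left out. The 6 lower ran from 6 to 15 when 1 array was left out, with 10 without control replicate 1 and 15 without treated replicate 2. Fewer arrays make it easier for groups not to overlap. The shares over all genes beside these counts were not taken under the alternatives, except for groups apart without control replicate 2. The median control SD of 0.16 was 0.09 on the log2(intensity + 16) scale, and ran from 0.09, without control replicate 2, to 0.16 when 1 array was left out. The median difference of 0.07 ran from -0.01, with quantile normalization and without dim probe sets, to 0.10 with arrays centred on their medians.

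Of the 24 genes that the rule for full values named, 14 kept their sign in each alternative and 10 did not. With quantile normalization Ccl22 was at -0.02, Ccr1 at -0.01 and Cxcl1 at 0.08. With arrays centred on their medians Cxcl1 and Cxcr4 were each at 0.02 and Cxcr2 at 0.03. Leaving out 1 array gave ranges of -0.04 to 0.26 for Ccl22, -1.30 to 0.05 for Ccl5, -0.33 to 0.57 for Ccl6, -0.54 to 0.02 for Ccl7, -0.09 to 0.09 for Cxcl1, -0.22 to 0.53 for Cxcl10, -0.26 to 0.44 for Cxcl9, -0.09 to 0.12 for Cxcr2 and -0.32 to 0.29 for Cxcr4. The cause of these changes was not tested. The replicate numbers are not stated to mark a shared source, and same-numbered arrays did not deviate together (correlations of 0.03 and 0.03). With the replicate number as a block, 0 genes passed, 6 had an unadjusted p under 0.05 (share over all genes not counted), the median difference was 0.02 and Cxcl10 was at -0.16. Most of these genes lie at low intensity, and the 5 arrays limit what can be detected.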

Other observations

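Genes outside the chemokine system shared the high values of control replicate 2. These were chosen after their values were seen, as the 15 with the largest excess of that array over the mean of the other controls. Among them were Ptgs2, the inducible cyclooxygenase, at 3.84, 7.94 and 3.94 in controls and 4.49 and 4.16 in treated liver, and Clec4e, the macrophage receptor Mincle, at 3.08, 6.91 and 2.99 in controls and 3.24 and 2.67 in treated liver. Acod1, the enzyme that makes itaconate in activated macrophages, was at 3.80, 7.20 and 3.89 in controls and 3.71 and 3.95 in treated liver. The excess was 2.03 for Nos2, the inducible nitric oxide synthase, and 1.96 for the costimulatory receptor Cd40. Over all 18820 genes ranked by this excess, Ccl3 was at rank 1 (4.34), Cxcl2 at 5 (3.02), Ccl5 at 6 (2.69), Cxcl10 at 16 (1.44) and Cxcl9 at 26 (1.14). Not all of the 15 are inflammatory genes: Cyp4a14, a fatty acid hydroxylase of hepatocytes, was at 7.52, 11.02 and 9.84 in controls.

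Some chemokine probe sets carry several symbols and were left out of the comparison. Those shared by the Ccl21 genes, ligands of Ccr7, were at 5.99, 5.8 and 5.72 in controls and 6.15 and 6.85 in treated liver, a difference of 0.67. Those naming Ccl27a together with other genes differed by -0.33 to 0.37. The probe set shared by Cxcl16 and Zmynd15 differed by -0.29, beside -0.23 for the Cxcl16 probe set used.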
